A study of Mus musculus with 4 samples.

Results

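The genes described here are 38 genes of mitosis and the kinetochore, taken by name from a list of mitotic cyclins, kinases, spindle checkpoint proteins, motor proteins and centromere proteins. All 38 were found among the 23312 genes of the deposited tables. They were measured by RNA sequencing of polyadenylated RNA in B220+CD43+ pro-B cells, early B-lineage cells sorted from mouse bone marrow. Each genotype was represented by 2 libraries, described as individual replicates, from C57BL/6 mice of unstated age, sex and number per library. One genotype was Cnot3(fl/fl) RERTCre, with loxP-flanked alleles of Cnot3, a subunit gene of the CCR4-NOT deadenylase complex that shortens poly(A) tails. The other was Cnot3(+/+) RERTCre, with wild-type alleles, so both carried the tamoxifen-inducible Cre, which is not restricted to B cells. All mice received 1 mg tamoxifen on each of days 1, 2, 4 and 7, and their cells were taken at day 10. They are called fl/fl and +/+ below, and pairs of values are given for replicate 1 and then replicate 2.

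Cells enter mitosis when cyclin B activates the kinase Cdk1, and the Aurora and Polo-like kinases then drive spindle assembly. The kinetochore, built on centromeric chromatin, attaches each chromosome to spindle microtubules, and the checkpoint holds the anaphase-promoting complex inactive until every chromosome is attached. Transcripts of this machinery accumulate in the G2 and M phases and are low in resting cells, and their level is widely used as a sign of proliferation. Early B-lineage cells alternate between proliferation and antigen receptor gene rearrangement, and pro-B and large pre-B cells include many dividing cells. In bulk RNA, fewer dividing cells and less RNA per dividing cell cannot be told apart.

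Values are FPKM, fragments scaled to transcript length and library size, so levels of different genes can be set side by side per length. The tables used hold no counts, so how many fragments lie behind a value is unknown. Low values do allow depths to be compared between libraries: 1 fragment was worth 1.21 times as much in +/+ replicate 1 as in +/+ replicate 2, a ratio that held for 13.4% of the 1847 genes compared. Between 14684 and 15126 genes were above 0 in a library. Cnot3 itself was at 39.0 and 40.3 FPKM in fl/fl libraries and 41.6 and 39.3 FPKM in +/+ libraries (limma adjusted p = 0.83), and the labels do not say which exons are flanked, so this value does not check the genotype labels. One library stood apart in sex-linked genes: Xist was at 0.024 FPKM in +/+ replicate 1 and between 54.3 and 63.1 FPKM in the other libraries, and Eif2s3y at 29.3 FPKM and at most 0.027 FPKM. The +/+ libraries thus differed in sex-linked transcripts, and the part of sex in what follows was not tested.

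The sorted cells carried B-lineage and other markers. The most abundant of 16 early B-lineage genes, Dntt (terminal transferase), Blnk and Cd79b, were at 232.9, 174.6 and 188.0 FPKM on average. Vpreb1 was at 9.89 and 7.21 FPKM in fl/fl and at 65.3 and 131.9 FPKM in +/+, and Pax5 at 12.5 and 9.62 against 22.5 and 33.8 FPKM. Of the 16, 13 had both fl/fl libraries below both +/+ libraries and 1 had both above (31.7% and 32.7% of the 11017 genes tested). Genes known from plasmacytoid dendritic cells, which also bear B220, were higher than any of these, with Bst2, Irf8 and Ly6d at 3032, 2052 and 1695 FPKM on average. The share of each type in the mitotic transcripts was not measured.

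Over the 4 libraries the mean level of the mitotic genes ran from 1.56 FPKM for Ccnb1 to 43.4 FPKM for Bub3, with a median of 9.12 FPKM. Of the 38, 11 averaged under 5 FPKM, 20 between 5 and 20 FPKM, and 7 at least 20 FPKM. Those 7 were Bub3, Top2a, Ccnb2, Incenp, Mki67, Cenpa and Ube2c. All 38 passed the filter of a mean of at least 1 FPKM that 11017 genes passed.

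For no mitotic gene did the difference between genotypes pass the test against the spread of its replicates. With limma on log2(FPKM + 1) and Benjamini-Hochberg adjustment over all 11017 genes, 0 of 38 were higher and 0 were lower in fl/fl libraries at an adjusted p under 0.05. Over all genes tested 6.22% were called higher and 3.28% lower. None of the 38 had an unadjusted p under 0.05, against 33.8% of all genes tested, and their adjusted p-values ran from 0.20 for Bub3 to 0.997 for Kif2c. The median log2 fold change, fl/fl minus +/+, was -0.27 over the 38 genes and -0.01 over all genes tested, with 29 negative and 9 positive. The standard errors of these differences had a median of 0.43 over the 38 genes and 0.11 over all genes tested. The p-values rest on the spread between 2 libraries of each genotype, moderated by a variance prior taken over all genes tested. Since the +/+ libraries differed in sex-linked transcripts, they were not technical repeats of the same sample. How much of the spread of the 38 genes was technical is unknown for either genotype.

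A difference shared by all of these genes lay within the +/+ genotype. All 38 genes were higher in +/+ replicate 2 than in +/+ replicate 1, as were 46.2% of all genes tested. The ratio had a median of 2.60 and ran from 1.14 for Bub3 to 3.75 for Nusap1. It was at least 2 for 33 of the 38 genes, and for 3.61% of all genes tested. The other 5 were Bub3, Mad2l1, Incenp, Cenpa and Kif20b. The fl/fl libraries also differed, by less: 35 of 38 genes were higher in fl/fl replicate 1 than in replicate 2 (44.5% of all genes tested), with a median ratio of 1.36. Aurkb, Incenp and Bub3 were the exceptions to the direction, at ratios of 0.994, 0.988 and 0.911. These are single libraries, so the ratios have no replicate check.

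**Figure D1:**
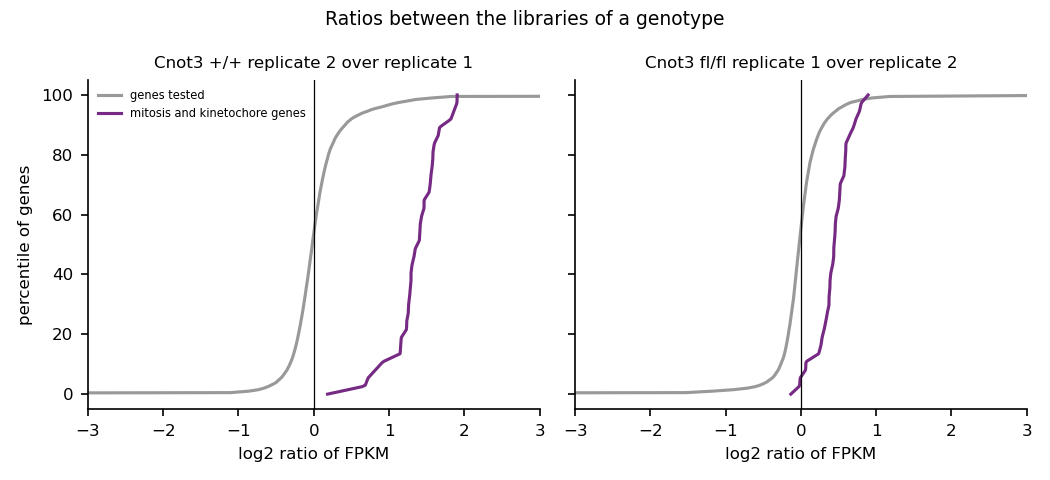
Percentiles of the log2 ratio of FPKM between the libraries of a genotype, +/+ replicate 2 over replicate 1 on the left and fl/fl replicate 1 over replicate 2 on the right. The purple lines are the 38 mitosis and kinetochore genes and the grey lines all genes tested that were above 0 in every library. The purple line is to the right of 0 for all 38 genes on the left and for 35 of 38 on the right.

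The fl/fl values lay inside the +/+ range for most of these genes. Both fl/fl libraries lay between the +/+ libraries for 24 of the 38 genes, and for 10.2% of all genes tested. In 36 of 38 genes +/+ replicate 2 was the highest library (24.6% of all genes tested), and in 26 of 38 +/+ replicate 1 was the lowest (24.1%). For the remaining 12 genes +/+ replicate 1 lay between the fl/fl libraries, and for none did both fl/fl libraries lie below it. The genotypes did not overlap for 1 of 38 genes, Bub3, where 64.4% of all genes tested did not overlap. The gap between the +/+ libraries on the log2 scale exceeded the gap between genotype means for 37 of 38 genes, against 37.3% of all genes tested.

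**Figure D2:**
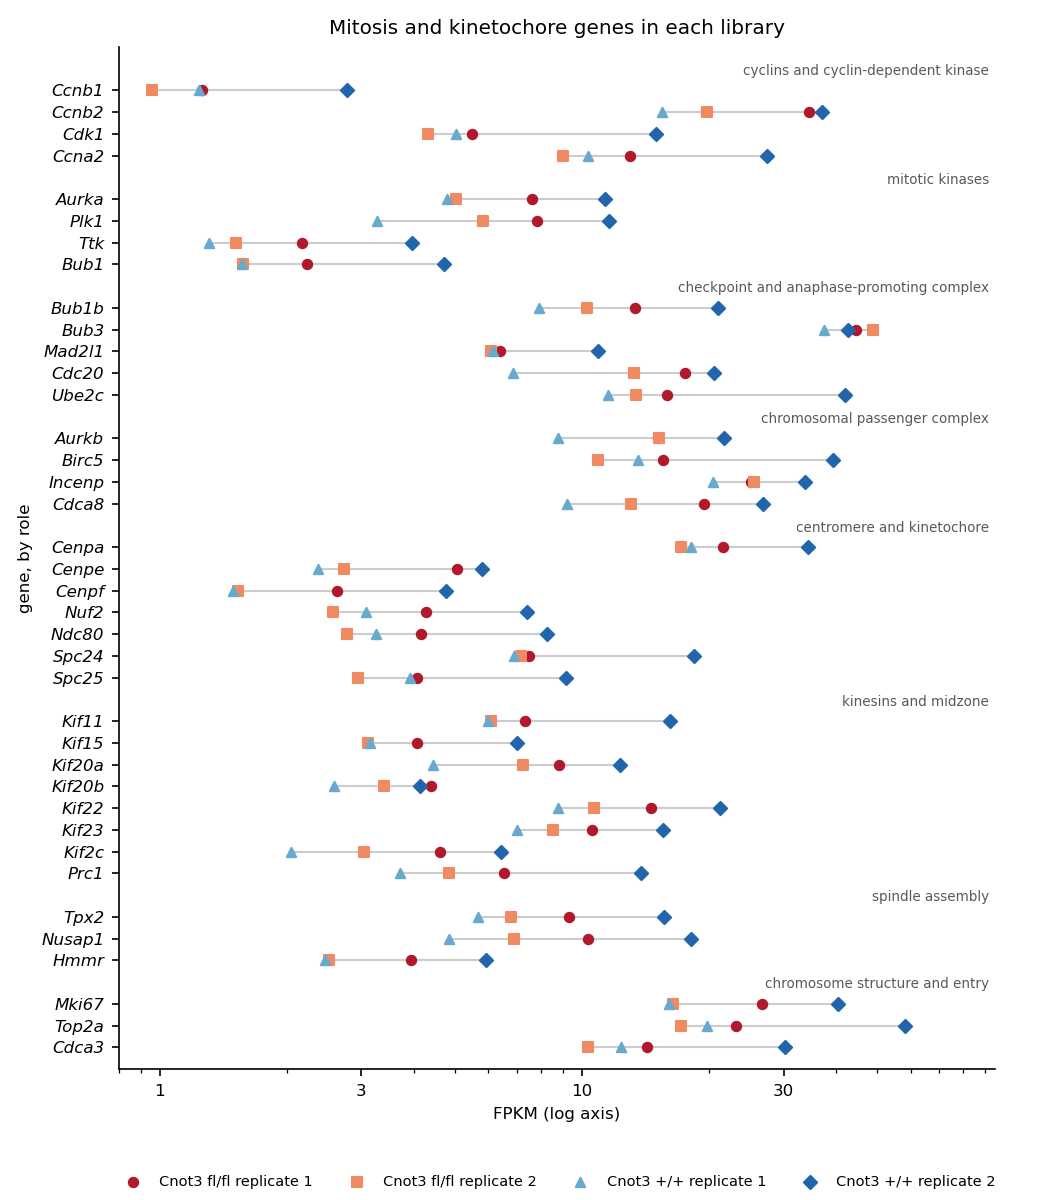
FPKM of each of the 38 genes in each library on a log axis, with genes grouped by role and a grey line from the lowest to the highest library. Blue diamonds, +/+ replicate 2, are the rightmost point for 36 genes, and light blue triangles, +/+ replicate 1, the leftmost for 26.

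The direction of the genotype difference depended on which +/+ library it was taken against. Without +/+ replicate 1, 37 of the 38 log2 fold changes were negative with a median of -0.81, and 28 had an unadjusted limma p under 0.05 (29.6% of all genes tested). Without +/+ replicate 2, 33 were positive with a median of 0.30, and 6 had an unadjusted p under 0.05 (29.2% of all genes tested), all higher in fl/fl. Those 6 were Plk1, Bub3, Cdc20, Aurkb, Incenp and Kif20a. In neither case did a gene pass the adjusted threshold, and the lowest adjusted p was 0.080 and 0.094. In these fits the lone +/+ library is assumed to vary like the fl/fl libraries. In sex-linked transcripts +/+ replicate 2 resembled the fl/fl libraries and +/+ replicate 1 did not, and the part of sex was not tested. For 32 genes the sign turned from negative to positive. It was negative both times for Ccnb1, Cdk1, Birc5, Spc25 and Cdca3, and positive both times for Bub3.

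**Figure D3:**
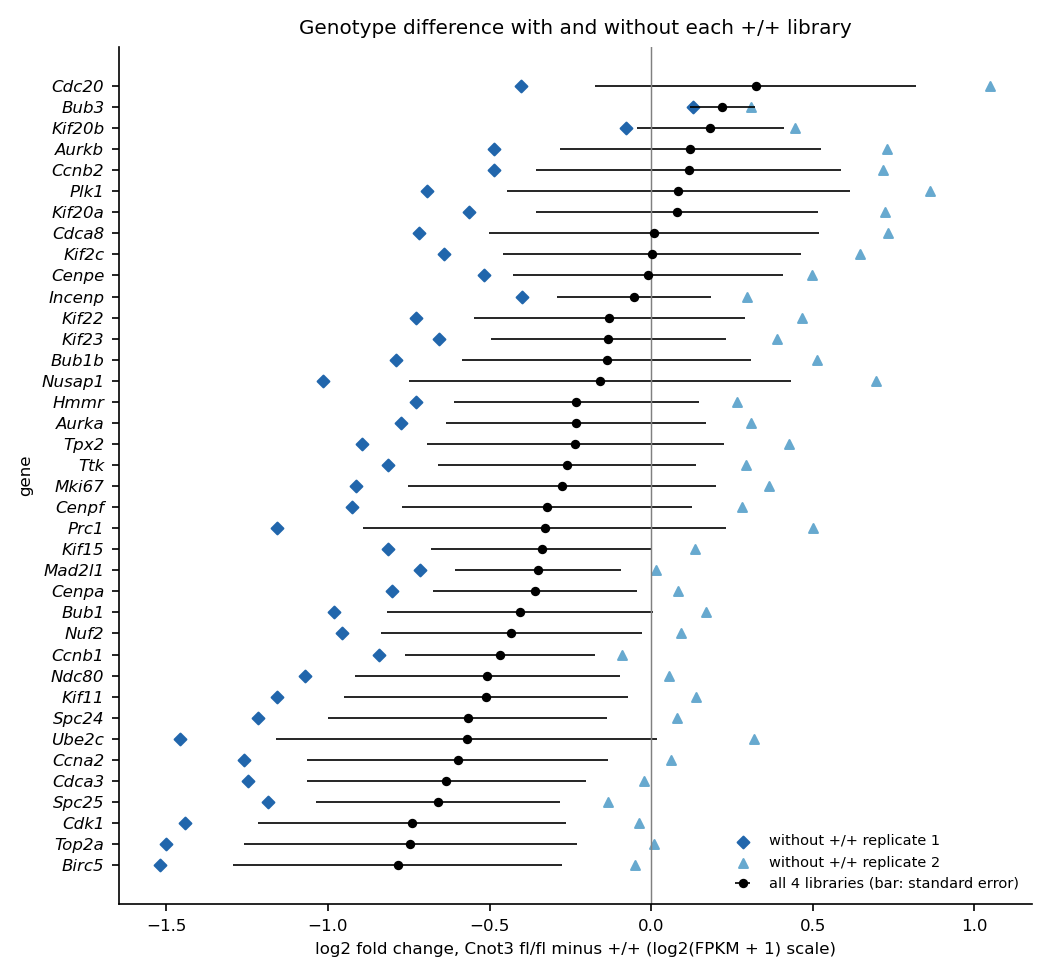
Log2 fold change of each gene, fl/fl minus +/+, on the log2(FPKM + 1) scale. Black points use all 4 libraries with bars of 1 standard error, diamonds leave out +/+ replicate 1 and triangles leave out +/+ replicate 2. The diamonds are below 0 for 37 genes and the triangles above 0 for 33.

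The authors' deposited table marked 6 of the 38 genes as significant and lower in fl/fl (2.51% of the genes it tested) and 0 as significant and higher (4.08%). The 6 were Top2a, Cdk1, Birc5, Kif11, Ube2c and Cdca3, with q-values of 0.0022, 0.010, 0.024, 0.035, 0.046 and 0.048. Top2a encodes topoisomerase II alpha, which untangles sister chromatids, and was at 23.2 and 17.1 FPKM in fl/fl and at 19.8 and 58.2 FPKM in +/+. Cdk1 was at 5.49 and 4.31 FPKM in fl/fl and at 5.03 and 15.0 FPKM in +/+. In both genes +/+ replicate 1 lay between the fl/fl libraries and +/+ replicate 2 stood above all others. Limma gave Top2a a log2 fold change of -0.75 (SE 0.52, adjusted p = 0.36) and Cdk1 one of -0.74 (SE 0.48, adjusted p = 0.34).

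The cyclins also had +/+ replicate 2 as their highest library. Ccna2 encodes cyclin A2, which acts in S phase and early mitosis, and was at 12.97 and 9.03 FPKM in fl/fl and at 10.3 and 27.3 FPKM in +/+. Ccnb2, one of the B-type cyclins that activate Cdk1, was at 34.4 and 19.7 FPKM in fl/fl and at 15.5 and 36.9 FPKM in +/+, and its fl/fl values lay inside the +/+ range. Its relative Ccnb1 was at 1.26 and 0.961 against 1.24 and 2.77 FPKM, the lowest mean of the 38 genes. RefSeq lists pseudogenes named after Ccnb1, Ccnb2, Aurkb and Kif22, so reads of these genes may be shared with near-identical copies and their levels are uncertain. The 4 genes of cyclins and Cdk1 had log2 fold changes from -0.74 to 0.12 (limma adjusted p from 0.33 to 0.88).

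Among the mitotic kinases, Plk1 (Polo-like kinase 1, needed for spindle formation and mitotic exit) was at 7.81 and 5.83 FPKM in fl/fl and at 3.27 and 11.6 FPKM in +/+. Its ratio of +/+ replicate 2 to replicate 1, 3.54, was among the widest. Aurka, the spindle pole Aurora kinase, was at 7.60 and 5.02 against 4.80 and 11.3 FPKM. Both genes had fl/fl values between the +/+ values. The checkpoint kinase genes Ttk and Bub1 were less abundant, at means of 2.24 and 2.52 FPKM, and were also highest in +/+ replicate 2. The log2 fold changes of these 4 genes ran from -0.41 to 0.08.

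Genes of the spindle checkpoint and the anaphase-promoting complex had log2 fold changes from -0.57 to 0.32. Ube2c, the ubiquitin-conjugating enzyme that works with the complex, was at 15.9 and 13.5 FPKM in fl/fl and at 11.5 and 41.9 FPKM in +/+. Cdc20, the activator that the checkpoint restrains, was at 17.5 and 13.3 FPKM in fl/fl and at 6.86 and 20.5 FPKM in +/+. In the +/+ libraries both thus varied 3.63-fold and 2.99-fold, with fl/fl values inside that range. Bub1b (BubR1), a checkpoint protein that binds Cdc20, was at 13.3 and 10.3 against 7.90 and 21.0 FPKM, and its partner Mad2l1 at 6.39 and 6.10 against 6.17 and 10.9 FPKM. Bub3, a WD-repeat protein that brings checkpoint proteins to kinetochores, behaved differently. It was at 44.6 and 48.9 FPKM in fl/fl and at 37.5 and 42.6 FPKM in +/+, so both fl/fl libraries lay above both +/+ libraries, with a log2 fold change of 0.22 (SE 0.10, limma adjusted p = 0.20). In these libraries Bub3 was thus the most abundant and the least variable of the 38 transcripts. In the authors' deposited table the locus of Cdc20 (chromosome 4, 118100697 to 118109948, mm9) is merged with that of Elovl1, which was at 45.3 and 43.4 FPKM in fl/fl and 54.6 and 45.8 FPKM in +/+. Merged loci were also listed for Ccna2 (with Exosc9), Nusap1 (with Oip5) and Kif20a (with Brd8 and Cdc23).

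The chromosomal passenger complex, which corrects faulty attachments and guides cytokinesis, consists of the Aurora B kinase with Incenp, survivin (Birc5) and borealin (Cdca8). Aurkb was at 15.1 and 15.2 FPKM in fl/fl and at 8.76 and 21.7 FPKM in +/+, with equal genotype means of 15.2 FPKM. Birc5 was at 15.6 and 10.9 FPKM in fl/fl and at 13.6 and 39.3 FPKM in +/+ libraries, with the most negative log2 fold change of the 38 genes, -0.78 (SE 0.51, limma adjusted p = 0.34). The scaffold Incenp was at 25.2 and 25.5 against 20.4 and 33.7 FPKM, and Cdca8 at 19.4 and 13.1 against 9.20 and 26.9 FPKM. Subunits of 1 complex therefore had log2 fold changes from -0.78 to 0.12, none of which passed the test.

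At the centromere, the histone variant gene Cenpa was at 21.6 and 17.1 FPKM in fl/fl and at 18.1 and 34.3 FPKM in +/+ libraries. The 4 subunits of the Ndc80 complex, which binds microtubules at the outer kinetochore, all had +/+ replicate 2 highest, at 18.4 FPKM for Spc24, 9.18 for Spc25, 8.27 for Ndc80 and 7.42 for Nuf2. In the other 3 libraries these genes lay between 2.57 and 7.50 FPKM. Their log2 fold changes were -0.57, -0.66, -0.51 and -0.43, with limma adjusted p-values from 0.29 to 0.50. The large kinetochore proteins Cenpe and Cenpf were at means of 3.99 and 2.60 FPKM. Cenpe had the widest fl/fl ratio of the 38 genes, 1.86, at 5.07 and 2.73 FPKM.

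Among the motors, Kif11, the kinesin that pushes spindle poles apart, was at 7.32 and 6.09 FPKM in fl/fl and at 5.98 and 16.1 FPKM in +/+. Kif22, a chromosome-arm kinesin, was at 14.5 and 10.7 against 8.75 and 21.3 FPKM, and Kif23, a subunit of centralspindlin, at 10.6 and 8.54 against 7.02 and 15.5 FPKM. Kif20a, a kinesin of cytokinesis, was at 8.81 and 7.24 against 4.45 and 12.3 FPKM. In all 4 genes +/+ replicate 1 was the lowest and +/+ replicate 2 the highest library. Prc1, which bundles midzone microtubules, had a +/+ ratio of 3.74. Kif20b, like Bub3, did not have +/+ replicate 2 as its highest library: fl/fl replicate 1, at 4.39 FPKM, was just above the 4.13 FPKM of +/+ replicate 2. The 8 genes of motors and midzone had log2 fold changes from -0.51 to 0.18.

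The spindle assembly factor Tpx2, which activates Aurora A, was at 9.31 and 6.79 FPKM in fl/fl and at 5.67 and 15.7 FPKM in +/+. Nusap1, a microtubule-bundling protein, was at 10.3 and 6.89 against 4.83 and 18.1 FPKM, and Hmmr at 3.94 and 2.52 against 2.47 and 5.91 FPKM. The proliferation marker Mki67, whose protein coats mitotic chromosomes, was at 26.7 and 16.5 FPKM in fl/fl and at 16.1 and 40.4 FPKM in +/+. Cdca3, linked to mitotic entry, was at 14.3 and 10.3 against 12.3 and 30.3 FPKM. In Mki67, Tpx2, Nusap1 and Hmmr both fl/fl libraries lay inside the +/+ range, whereas in Cdca3 fl/fl replicate 2 was the lowest library.

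For some genes the level relative to the rest of the group separated the genotypes. Each gene's log2 FPKM was set against the median of the 38 genes in the same library, which takes out a change that all of them share. On this scale 11 genes had both fl/fl libraries above both +/+ libraries, 12 had both below and 15 overlapped. Over all genes tested with values above 0, 10.5% were above and 1.51% below on the same scale. The median of the 38 genes was 5.82 and 15.6 FPKM in +/+ and 8.31 and 6.84 FPKM in fl/fl libraries. Genes that did not follow the group are thus pulled apart between the +/+ libraries, which makes overlap likely. These shares are therefore no baseline for the 38 genes. Without centring, 64.4% of all genes tested did not overlap. Centring on the 38 genes also balances the directions among them, so the counts of 11 and 12 are a description and no test was made. The 11 were Cdc20, Kif20b, Aurkb, Plk1, Ccnb2, Kif20a, Kif2c, Cdca8, Kif22, Kif23 and Bub1b. The 12 were Cdk1, Birc5, Spc25, Top2a, Ccnb1, Cdca3, Ccna2, Spc24, Ndc80, Ube2c, Kif11 and Bub1, and in Ube2c and Bub1 fl/fl and +/+ values nearly met.

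Ratios to Cdk1 within a library show single values behind this, but on another reference. Relative to the group median, Cdk1 had the most negative log2 difference of the group, -0.49 for fl/fl minus +/+. Dividing by Cdk1 therefore shifts the other genes upward in fl/fl relative to +/+. Of 37 genes, 29 had both fl/fl ratios to Cdk1 above both +/+ ratios and 0 had both below. The share over all genes tested is not given here, so this count cannot be read as particular to the mitotic genes. Among the 29 were Ccna2, Ube2c, Kif11, Bub1 and Top2a, which lay below on the scale of the group median. Cdc20 had 3.19 and 3.09 times the level of Cdk1 in the fl/fl libraries and 1.36 and 1.37 times in the +/+ libraries. Plk1 was at 1.42 and 1.35 times the level of Cdk1 in fl/fl and at 0.65 and 0.773 times in +/+. Aurkb was at 2.75 and 3.53 times against 1.74 and 1.45 times, and Ccnb2 at 6.26 and 4.57 times against 3.07 and 2.47 times. The separation was narrow or absent for genes near Cdk1 on the first scale: the level of Top2a relative to Cdk1 was 4.21 and 3.97 in fl/fl and 3.93 and 3.89 in +/+, and that of Birc5 2.83 and 2.53 against 2.69 and 2.63. For Cdc20 the ratio was nearly equal between the +/+ libraries, although Cdc20 itself differed 2.99-fold and Cdk1 2.97-fold between them. The genes were picked after their values were seen, and with 2 libraries against 2 an exact permutation test of a single ratio cannot go below p = 0.333.

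**Figure D4:**
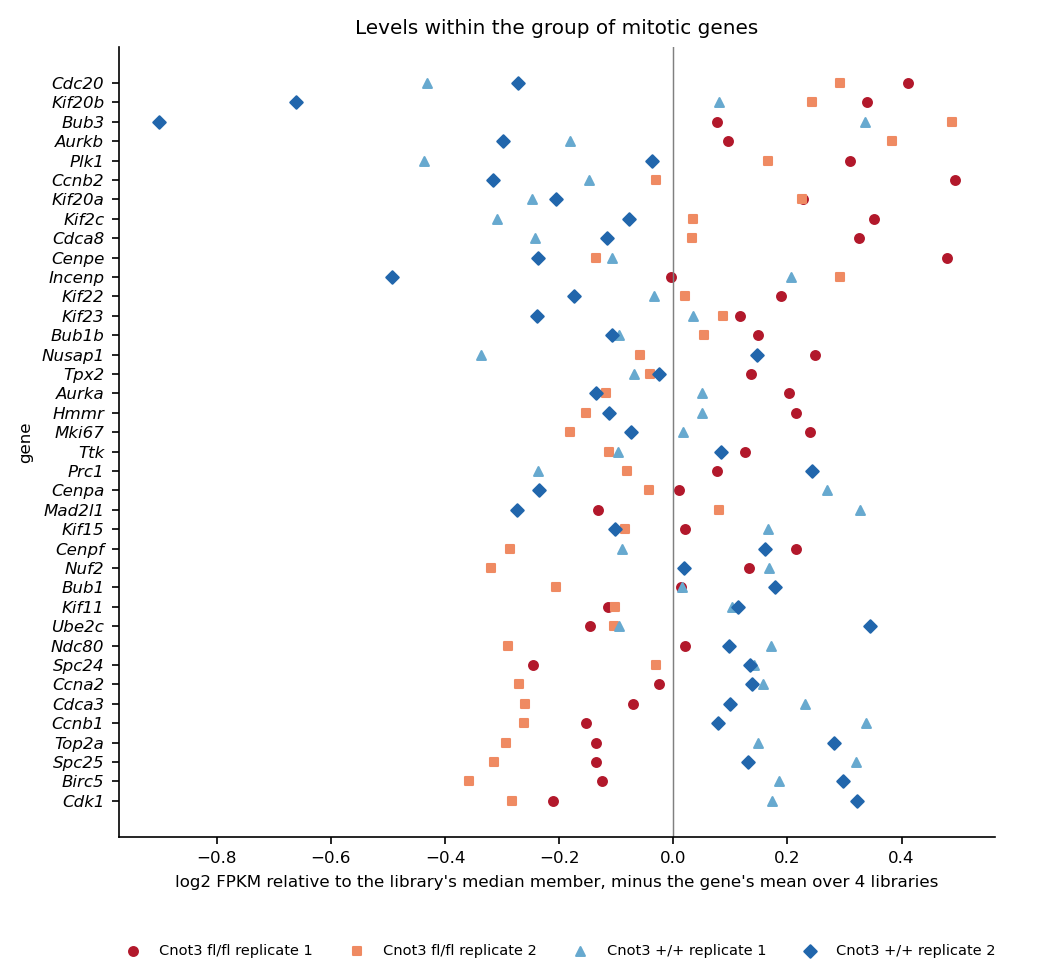
Log2 FPKM of each gene relative to the median of the 38 genes in the same library, with each gene's mean over the 4 libraries subtracted, ordered by the difference between genotypes. For Cdc20, Kif20b, Aurkb and Plk1, near the top, both fl/fl libraries lie to the right of both +/+ libraries, while Bub3, among them, overlaps. For Cdk1, Birc5, Spc25 and Top2a, at the bottom, they lie to the left.

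Most other genes of cell division varied across the libraries in the same direction by smaller ratios. In a wider list of 99 mitosis genes, none of them among the 38, 88 were higher in +/+ replicate 2 than in replicate 1. The median ratio over the 97 that were tested was 1.72. Of those 97, 2 rose and 0 fell in fl/fl (6.22% and 3.28% of all genes tested), with a median log2 fold change of -0.17. The 2 belong to the anaphase-promoting complex, as the subunit Anapc2 and the activator Fzr1 (Cdh1). Anapc2 rose to 60.0 ± 2.63 FPKM, against 41.6 ± 2.14 FPKM in +/+ (SD, n = 2 per genotype, a difference of 0.52 on the log2 scale with limma adjusted p = 0.041). Fzr1 rose to 48.9 ± 1.91 against 36.2 ± 1.10 FPKM (0.42 on the log2 scale, limma adjusted p = 0.043). The groups did not overlap for either, as for 64.4% of all genes tested. Both calls were lost with any 1 library left out (limma adjusted p from 0.10 to 0.23), and the authors' deposited table gave them q-values of 0.096 and 0.20. That table marked 3 other genes of the list as significant, all lower in fl/fl: Stmn1, Pbk and Ccnf, with q-values of 0.0053, 0.0079 and 0.021. Their limma adjusted p-values were 0.31, 0.16 and 0.31, and each was highest in +/+ replicate 2, at 49.74, 12.42 and 10.995 FPKM. Anapc4, Cdc27, Hjurp and Cenpl did not pass, with log2 fold changes of 0.42, -0.35, -0.62 and -0.57 (limma adjusted p from 0.052 to 0.13).

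Genes of DNA replication, the preceding phase of the cycle, had a median ratio of 1.55 between the +/+ libraries, and 47 of 50 were higher in +/+ replicate 2. The ratio was at least 2 for 4 of the 49 tested (8.16%), compared with 3.61% of all genes tested and 33 of the 38 mitotic genes. Of the 49, 2 rose and 1 fell, where 6.22% and 3.28% of all genes tested did. The clamp loader gene Rfc1 and the polymerase alpha subunit gene Pola2 rose with log2 fold changes of 0.48 and 0.57, and Rpa3, of the single-strand binding protein RPA, fell by 0.75 on the log2 scale (limma adjusted p = 0.041, 0.043 and 0.048). With any 1 library left out the limma adjusted p was at least 0.086 for each. Rrm2, the small subunit of ribonucleotide reductase, was at 12.9 and 9.19 FPKM in fl/fl and at 14.8 and 30.8 FPKM in +/+ (limma adjusted p = 0.16). The authors' deposited table marked Rrm2 and Uhrf1 as significant and lower in fl/fl (q = 0.0022 and 0.0040) and Mcm6, a subunit of the replicative helicase, as significant and higher (q = 0.015). Mcm6 was at 82.9 and 53.3 FPKM in fl/fl and at 30.7 and 51.2 FPKM in +/+ (limma adjusted p = 0.19).

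Mitotic genes are switched on late in the cycle by the MuvB complex with Mybl2 and Foxm1, which reaches promoters through the cell cycle homology region, and by NF-Y, which binds CCAAT boxes. Before that, repressor forms with E2f4 and the pocket proteins keep them off. In a list of 26 such regulators 0 rose, 2 fell and 24 did not pass, where 6.22% of all genes tested rose and 3.28% fell. Mybl2 was at 2.54 and 1.43 FPKM in fl/fl and at 2.43 and 5.53 FPKM in +/+ (limma adjusted p = 0.26), and Foxm1 at 12.8 and 11.9 against 13.5 and 20.9 FPKM (limma adjusted p = 0.24). Nfya, the regulatory subunit of NF-Y, fell to 34.8 ± 0.0517 FPKM, against 46.8 ± 1.43 FPKM in +/+ (SD, n = 2 per genotype, a difference of -0.42 on the log2 scale with limma adjusted p = 0.042). Tfdp1, the dimer partner of E2F factors, fell to 9.96 ± 0.0817 against 16.6 ± 2.34 FPKM (-0.68 on the log2 scale, limma adjusted p = 0.043). In both genes the fl/fl libraries lay below both +/+ libraries, which held for 12 of the 26 and for 31.7% of all genes tested. With any 1 library left out neither passed, the lowest limma adjusted p being 0.086. Unlike most mitotic genes, Nfya varied little between the +/+ libraries, at 45.8 and 47.8 FPKM. Rb1, E2f5, E2f2 and E2f6 were at 13.3, 2.60, 5.43 and 7.76 FPKM in fl/fl and 16.8, 4.03, 14.5 and 10.2 FPKM in +/+, with limma adjusted p-values from 0.069 to 0.089. The authors' deposited table marked E2f2, E2f7 and Mybl2 as significant, all lower in fl/fl, with q-values of 0.0022, 0.031 and 0.045.

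The letters of these elements were searched in the promoters. RefSeq promoter windows (GRCm38.p6, 250 bases before to 50 bases after each start) were matched for 32 of the 38 genes in 34 windows, with 2 each for Bub3 and Prc1 that overlap. Incenp, Ccna2, Aurkb, Spc24, Tpx2 and Kif20a were not matched. The core letters of the cell cycle homology region, TTTGAA, occurred on either strand in 27 of the 34 windows (79.4%) and in 17.9% of all 32851 windows. In 24 windows (70.6%) a match began within 50 bases of the start, compared with 4.94% of all windows. A variant of this core, TTCGAA, occurred in 3 windows (8.82%), against 1.56% of all. The box bound by NF-Y, searched as CCAAT, occurred on either strand in 26 windows (76.5%), against 37.4% of all. The box and the core occurred together in 23 windows (67.6%), against 6.95% of all, and such matches can share a letter where they meet. The promoters of Cdk1 and Top2a are shown beside those of Ccnb2, Cdc20 and Plk1 because all 5 genes varied between the +/+ libraries, while the first pair lay below and the others above in the within-library comparison. Each line gives the 250 bases before the start, 5′ to 3′, and capitals mark the box, the core and its variant on either strand, so that a box on the reverse strand reads ATTGG.
Ccnb2 promoter (chr9:70421555-70421804, minus strand): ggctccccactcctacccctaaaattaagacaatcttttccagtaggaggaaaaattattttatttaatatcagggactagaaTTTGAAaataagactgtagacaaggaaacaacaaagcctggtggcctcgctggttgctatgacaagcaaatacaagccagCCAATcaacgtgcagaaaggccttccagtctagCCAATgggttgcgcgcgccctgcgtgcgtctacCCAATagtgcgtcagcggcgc
Cdk1 promoter (chr10:69352913-69353162, minus strand): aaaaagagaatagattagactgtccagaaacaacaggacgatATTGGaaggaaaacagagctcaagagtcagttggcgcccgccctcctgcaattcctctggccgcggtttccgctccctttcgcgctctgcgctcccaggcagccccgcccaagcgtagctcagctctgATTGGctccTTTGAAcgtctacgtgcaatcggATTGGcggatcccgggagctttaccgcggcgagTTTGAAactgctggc
Top2a promoter (chr11:99024190-99024439, minus strand): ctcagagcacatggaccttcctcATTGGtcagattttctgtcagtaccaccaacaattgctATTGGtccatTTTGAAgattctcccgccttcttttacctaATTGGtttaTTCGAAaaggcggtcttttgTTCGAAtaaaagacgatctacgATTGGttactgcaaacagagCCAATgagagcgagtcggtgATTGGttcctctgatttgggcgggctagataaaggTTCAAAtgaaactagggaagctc
Cdc20 promoter (chr4:118437344-118437593, minus strand): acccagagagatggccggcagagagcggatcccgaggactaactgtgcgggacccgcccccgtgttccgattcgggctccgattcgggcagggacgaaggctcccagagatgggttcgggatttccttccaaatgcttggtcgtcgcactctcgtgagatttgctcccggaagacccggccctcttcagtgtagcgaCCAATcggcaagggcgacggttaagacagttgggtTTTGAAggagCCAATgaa
Plk1 promoter (chr7:122159185-122159434, plus strand): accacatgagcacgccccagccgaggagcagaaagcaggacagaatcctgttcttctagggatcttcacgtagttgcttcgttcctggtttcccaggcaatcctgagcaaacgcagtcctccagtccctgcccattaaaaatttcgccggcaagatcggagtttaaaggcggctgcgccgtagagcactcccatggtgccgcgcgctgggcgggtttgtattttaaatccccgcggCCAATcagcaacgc

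All 5 windows held both the box and the core. Top2a had 6 CCAAT matches in its window, Cdk1 and Ccnb2 had 3 each, Cdc20 had 2 and Plk1 had 1. In Plk1 the core match lies after the start, at base 31, outside the stretch printed, and Ccnb2 has a further one at base 5. Birc5, Mad2l1, Nuf2 and Nusap1 had neither the box nor the core in the window. A match is a description of these letters and not evidence of a bound site.

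Marker genes were compared across the same libraries. Of 16 early B-lineage genes, 15 were higher in +/+ replicate 2 than in replicate 1, with a median ratio of 1.69, and their summed level was 1183 FPKM in +/+ replicate 1 and 1672 FPKM in replicate 2. In fl/fl libraries the sum was 909.2 and 869.6 FPKM, and both fl/fl libraries lay below both +/+ libraries for 13 of the 16 (31.7% of all genes tested). Of these genes 6 fell in fl/fl by the limma test and 0 rose (3.28% and 6.22% of all genes tested). Both fl/fl libraries lay below +/+ replicate 1 for 14 of the 16 early B-lineage genes and for 0 of the 38 mitotic genes. For this last pattern the share over all genes tested is not given here. The sum over 12 plasmacytoid dendritic cell genes ran from 9547 to 11248 FPKM in fl/fl and from 11386 to 11761 FPKM in +/+, and 4 of the 12 were higher in +/+ replicate 2. Of 11 erythroid genes 9 were higher in +/+ replicate 2, with a median ratio of 2.01 over the list. The sums over the 11 were 160.5 and 187.5 FPKM in +/+ and 120.3 and 128.5 FPKM in fl/fl. Tfrc made up most of the +/+ sums, at 116.4 and 105.3 FPKM. Hba-a1 was at 16.6 and 33.3 FPKM and Hbb-b1 at 10.7 and 27.4 FPKM in +/+. The median erythroid ratio of fl/fl replicate 1 to replicate 2 was 0.602, and the mitotic one 1.36. Gata1 and Klf1 were at most 0.598 FPKM in every library. Of 14 neutrophil and monocyte genes 13 were higher in +/+ replicate 2 (sums of 941.0 and 1240 FPKM, and 1268 and 1433 FPKM in fl/fl). Ly6c2 made up most of these sums, and without it they were 184.1 and 244.1 FPKM in +/+ and 270.4 and 186.0 FPKM in fl/fl, which overlap. For 13 T and NK cell genes, 8 later B-cell genes and 9 stem and progenitor genes the counts were 5, 4 and 2. By the limma test 3 of 13 tested neutrophil and monocyte genes (Elane, Ctsg and Itgam), 1 of 13 T and NK cell genes (Cd8b1) and 1 of 7 later B-cell genes (Ciita) rose in fl/fl. Those that fell were 2 of 5 stem and progenitor genes (Meis1 and Hoxa9), 1 of 12 plasmacytoid dendritic cell genes (Cox6a2) and 1 of 5 erythroid genes (Tfrc). Over all genes tested 6.22% rose and 3.28% fell. Cd8b1 was at 166.9 and 187.6 FPKM in fl/fl and at 33.4 and 61.0 FPKM in +/+ libraries. The 12 T and NK cell genes not called had log2 fold changes of both signs, from -0.55 for Cd3g to 0.96 for Ncr1. So did the 10 neutrophil and monocyte genes not called, from -0.58 for Camp to 1.10 for Csf1r. The part of any of these cells in the mitotic transcripts was not tested.

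**Figure D5:**
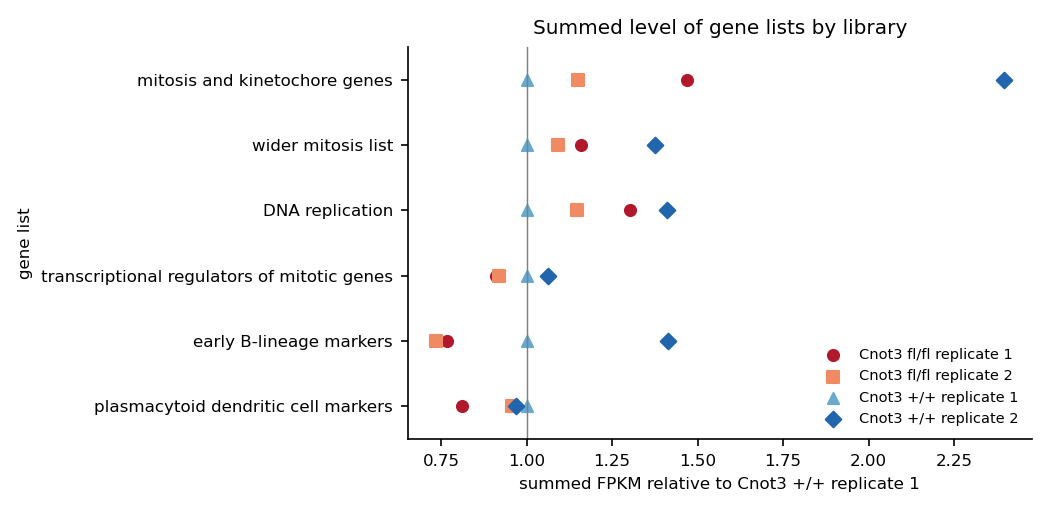
Summed FPKM of 6 gene lists in each library, divided by the sum in +/+ replicate 1. The 38 mitosis and kinetochore genes stand at 1.47 and 1.15 in fl/fl replicates 1 and 2 and at 2.39 in +/+ replicate 2, and the early B-lineage markers at 0.769, 0.735 and 1.41.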

How the data were processed

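RNA was measured in 4 libraries, 2 fl/fl and 2 +/+, grouped by the genotype and replicate in the sample titles. A stranded mRNA kit with 15 PCR cycles was used on column-purified RNA, per the labels' protocols. Build mm9 and the tools Cuffnorm 2.2.1, Cufflinks 2.2.1, Bowtie2 2.2.3.0, TopHat2 2.0.13 and bcl2fastq 1.8.4 are named in the submitters' processing notes. What each did, the annotation, strand use and scaling of libraries: not given in the sources used here. Per library the authors deposited FPKM values for 23312 genes. Their comparison table adds, per the file headers, an FPKM value for each genotype with a p-value and a q-value. Whether its mm9 starts count from 0 or 1 is not given.

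Values were taken as log2(FPKM + 1), which understates differences of low genes. The 11017 genes whose mean reached 1 FPKM entered a linear model in limma 3.58.1 (R 4.3.3, eBayes with trend), two-sided, on genotype alone, adjusting by Benjamini-Hochberg over these genes. Each gene had 2 residual degrees of freedom, to which the prior added 2.69. The script was tested on simulated data. Ratios between libraries, and levels relative to the median of the 38 genes, use FPKM with no pseudocount, over the 4 deposited values. Relative depth is the ratio shared by the most genes, within 0.5%, among those under 0.3 FPKM in both libraries.

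All 38 genes are reported. Those named with values per library were called by limma or the authors' table, or were among the 4 of their role with the highest mean. From the other lists, genes that were called and up to 4 more with the smallest p are named, and from marker lists up to 3 of the most abundant. The values of Mad2l1, Cenpe, Cenpf, Nuf2, Prc1, Kif20b, Rrm2, Uhrf1, Mcm6, Stmn1, Pbk, Ccnf, Mybl2, Foxm1, E2f7, Elovl1, Gata1, Klf1, Ly6c2, Cd3g, Ncr1, Camp, Csf1r and the called marker genes fall outside these rules and were chosen after they were seen. The 38 genes, the lists and the tests were chosen with earlier results of these data known. Alternatives were other pseudocounts, filters, scalings and variance settings, a replicate block, and each library left out.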

Additional observations from a re-analysis of the deposited data

How the results depend on the processing

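The count of mitotic genes called was 0 in each direction under every setting tried: pseudocounts of 0.1 and 5, no filter or one at 5 FPKM (27 of the 38 genes tested), quantile or median-ratio scaling, eBayes robust or without trend, the replicate block, and each library left out. Their lowest adjusted p over these settings was 0.080. The median log2 fold change over the 38 genes was between -0.30 and -0.18 in settings that keep all libraries, and between -0.81 and 0.30 with 1 library left out. It was -0.48 without fl/fl replicate 1, -0.06 without fl/fl replicate 2, -0.81 without +/+ replicate 1 and 0.30 without +/+ replicate 2. Genes called higher in the wider mitosis list numbered 2, but 0 with no filter, 0 without the trend, 1 with the replicate block and 0 to 0 with 1 library left out. Over all genes the calls were 685 higher and 361 lower. They were 4 and 1 with no filter on low values, 242 and 69 without the trend, 914 and 515 with robust eBayes, 456 and 270 with the replicate block, and between 2 and 18 higher and 0 and 13 lower with 1 library left out. The replicate number was not taken as a pairing, since nothing in the labels ties same-numbered libraries together, although their deviations correlated at 0.14 across all genes tested. With that block 1 of the 38 genes had an unadjusted p under 0.05 and 0 passed. Each genotype has 2 libraries and the absolute depth is unknown, so differences smaller than the spread between replicates were not detectable.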
